A study of Mus musculus with 4 samples.

Results

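The genes described here are 9 meiotic recombination genes, Spo11, Mei1, Mei4, Prdm9, Dmc1, Meiob, Spata22, Msh4 and Msh5. They were taken by symbol from the 40999 features listed in each count table, of which 31568 had a count in at least 1 library, and all 9 were found. Total RNA from the gonads of wild-type C57BL/6J mouse embryos was sequenced once a day from E11.5 until E14.5 (embryonic days) to follow RNA through early gonad development. Each time point was 1 library made from a pool of XX and XY gonads in equal numbers, so the sexes cannot be separated and no difference between time points has a replicate check. The mesonephros, the transient kidney beside the gonad, was kept with the gonad at E11.5 and removed afterwards.

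During meiotic prophase, homologous chromosomes pair and exchange DNA. SPO11 cuts both strands of the DNA with the help of MEI1, MEI4 and other partners, and in mice PRDM9 marks the places where the cuts are made. The cut ends are trimmed to single strands, bound by RPA together with MEIOB and SPATA22, and led into the homologous chromosome by the recombinase DMC1, after which the MSH4 and MSH5 pair holds the joined DNA so that a crossover can form. In the fetal mouse, germ cells of the ovary enter meiotic prophase over the days studied here, while those of the testis do not enter meiosis until after birth.

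The libraries held 31266481, 25593453, 31752562 and 31526303 counts in order of age. The E14.5 library stood apart in its make-up. The ribosomal RNA feature Rn18s-rs5 took 40.65% of its counts, against 9.06%, 1.31% and 1.03% in the younger libraries, and its 10 most abundant features took 57.3%. The other RNAs therefore shared a smaller part of the E14.5 counts. For 1 gene across libraries, levels are given as CPM (the count divided by the library size and set to a common depth) scaled with TMM, a method that sets the bulk of genes level between libraries. Its factors were 1.095, 1.224, 1.247 and 0.598 in order of age. For different genes in 1 library, levels are given as the deposited TPM, which corrects for transcript length. Intervals are exact 95% intervals that cover counting error only, not variation between animals.

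A gene was called changed between a pair of libraries when its TMM-scaled ratio was at least 2-fold and the counting interval of the ratio did not include 1, among genes with at least 10 counts in 1 of the pair. From E11.5 to E12.5, 6 of the 9 genes had enough counts and 2 were called up, Spo11 and Mei4, with none called down, where 8.11% of 19500 genes were called up and 8.51% down. From E12.5 to E13.5 all 9 had enough counts and 4 were called up, Spo11, Mei1, Dmc1 and Meiob, where the table held 2.66% up and 1.47% down. From E13.5 to E14.5, 5 were called up, Mei1, Prdm9, Meiob, Spata22 and Msh5, beside 5.89% up and 1.6% down over all genes. Over the longer step from E12.5 to E14.5, which leaves out the library with mesonephros, 6 were called up, Spo11, Mei1, Prdm9, Dmc1, Meiob and Spata22, beside 8.31% up and 2.64% down. None of the 9 was called down in these 4 comparisons. With an exact test in edgeR at a preset biological coefficient of variation of 0.2, no member was called from E12.5 to E13.5. At 0.4, no member was called in any step between neighbouring days. In pooled tissue, more germ cells and more RNA per germ cell cannot be told apart.

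Calls that involve E14.5 depended on the scaling, and the folds given below are by TMM. On the log2 scale, total counts change every ratio of E14.5 over E13.5 by -1.06 and deposited TPM by -1.62, and every ratio of E14.5 over E12.5 by -1.03 and -1.49. Scaled by total counts, with the median of all genes at -1.07 on the log2 scale, 3 of the 9 genes were called up from E13.5 to E14.5 and 1 down, beside 1.62% up and 58.8% down over all genes. By the ratio of deposited TPM, with the median of all genes at -1.63, 3 were called up and 3 down, beside 0.832% up and 87.8% down over all genes. Mei1, Meiob and Spata22 were called up under both, and Mei4 was called down under both, joined by Dmc1 and Msh4 under TPM. From E12.5 to E14.5 both gave 4 up (Mei1, Prdm9, Meiob and Spata22) and 1 down (Mei4), with the median of all genes at -1.04 and -1.49. All genes were then called up in 2.31% and down in 53.5% of cases by total counts, and in 1.38% and 80.9% by TPM. With Rn18s-rs5 alone left out of the total counts, an alternative added after the values were seen, the change relative to TMM was -0.32 from E13.5 to E14.5, so this feature does not account for the whole shift. Mei1, Prdm9, Meiob and Spata22 were then called up and Mei4 down, beside 3.98% up and 3.88% down over all genes.

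**Figure D1:**
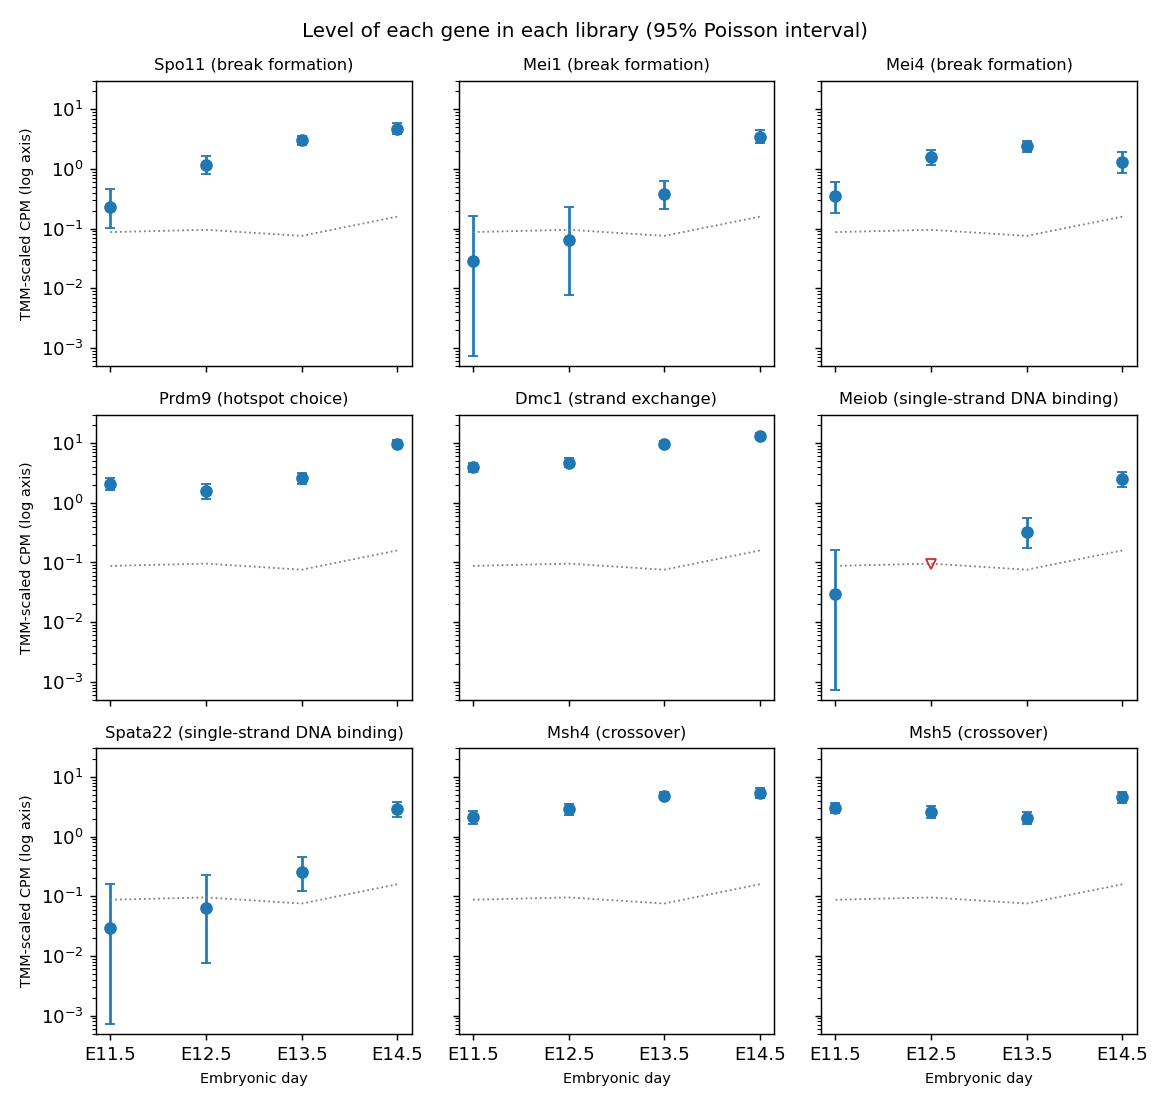
TMM-scaled CPM of each of the 9 genes (vertical log axis) in the 4 libraries (horizontal axis, embryonic day). Points are levels of 1 library each with 95% Poisson intervals, the dotted line is the level of 3 counts, and the open triangle marks the E12.5 library with 0 counts for Meiob, drawn at that level. On this scale 8 of the 9 genes are highest at E14.5, and Mei4 is highest at E13.5. Scaled by total counts, Spo11, Dmc1 and Msh4 are also highest at E13.5 and Msh5 at E11.5.

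The break-forming genes come first in the pathway. Spo11, the enzyme that cuts, had 8, 37, 119 and 89 counts in order of age, or 0.234, 1.18, 3.005 and 4.72 TMM-scaled CPM. It rose 4.99-fold from E11.5 to E12.5 (2.32 to 12.6) and 2.54-fold from E12.5 to E13.5 (1.75 to 3.79). Its ratio from E13.5 to E14.5 was 1.57 (1.18 to 2.09), short of the 2-fold threshold, and on the log2 scale it was 0.65 by TMM but -0.41 by total counts. By TPM, Spo11 ranked 5, 4, 2 and 4 among the 9 genes in order of age.

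Mei1, which is needed for the cuts to form, was close to undetected in the early libraries. It had 1, 2, 15 and 66 counts in order of age. The rise to E13.5 was 5.68-fold with a wide interval (1.38 to 53.5), since it rests on 2 counts at E12.5, and the rise from E13.5 to E14.5 was 9.16-fold (5.22 to 17.5) by TMM, with log2 values of 2.14 by total counts and 1.58 by TPM, outside that interval. The highest level, 3.50 TMM-scaled CPM, was at E14.5.

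Mei4, which acts in the same machinery, was highest at E13.5 by TMM and by total counts. Its counts were 12, 50, 95 and 25, or 0.350, 1.60, 2.40 and 1.33 TMM-scaled CPM, and it rose 4.52-fold from E11.5 to E12.5 (2.39 to 9.40). From E13.5 to E14.5 its ratio was 0.554 (0.341 to 0.867), an interval below 1 but not past the 2-fold threshold by TMM. By total counts the log2 ratio was -1.91, and Mei4 was then called down. Within a library the TPM of Mei1 over that of Mei4 was 0.154 (0.0831 to 0.268) at E13.5 and 2.58 (1.61 to 4.27) at E14.5, a change of order that no scaling between libraries enters. The exons of Mei4 overlap 186 bases of LOC102639075 on the opposite strand, which had at most 1 count in any library.

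The sites of the cuts are chosen by Prdm9. This gene, which encodes a histone methyltransferase with DNA-binding zinc fingers, had 71, 49, 102 and 185 counts, or 2.07, 1.56, 2.58 and 9.82 TMM-scaled CPM. Neither early step was called: the ratio was 0.755 (0.513 to 1.10) from E11.5 to E12.5 and 1.65 (1.16 to 2.37) from E12.5 to E13.5. It then rose 3.81-fold to E14.5 (2.98 to 4.90), a log2 ratio of 1.93 by TMM that was 0.87 by total counts and 0.31 by deposited TPM, both positive and under the threshold.

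Strand exchange follows the trimming of the ends. Dmc1, the meiotic recombinase, was the most abundant of the 9 genes by TPM in each library, at 2.68, 3.89, 8.73 and 3.90 TPM. Its counts were 136, 148, 383 and 250, or 3.97, 4.72, 9.67 and 13.3 TMM-scaled CPM. It was already well above the floor at E11.5, where Dmc1 had 22.4 times (11.04 to 52.9) the TPM of Spo11, and this ratio was 5.27, 4.24 and 3.70 in the later libraries. Dmc1 rose 2.05-fold from E12.5 to E13.5 (1.69 to 2.49), just past the threshold. From E13.5 to E14.5 the ratio was 1.37 (1.17 to 1.61) and not called, with log2 values of 0.46 by TMM and -0.60 by total counts.

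The exposed single strands are bound by further proteins. Meiob and Spata22 encode partners that work as a complex. Meiob had 1, 0, 13 and 47 counts. From E12.5 to E13.5 it was at least 3.43-fold higher, taking the 0 counts at E12.5 as 3, and with the counting error of both libraries the 95% lower limit was 2.41. It rose a further 7.51-fold to E14.5 (4.04 to 15.3) by TMM, with log2 values of 1.85 by total counts and 1.30 by TPM, outside that interval. Spata22 had 1, 2, 10 and 54 counts. Its ratio of 3.80 from E12.5 to E13.5 was not called, as the interval of 0.843 to 37.1 included 1, and it rose 11.2-fold from E13.5 to E14.5 (5.72 to 25.0) by TMM, where the log2 value was 2.43 by total counts and 1.88 by TPM. No fold is given between E11.5 and E12.5 for Mei1, Meiob or Spata22, since none had more than 3 counts in either library. At E14.5 the TPM of Spata22 was 1.97 times (1.31 to 2.97) that of Meiob.

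Crossover formation is the last of these steps. Msh4 and Msh5 encode the subunits of a heterodimer, but their RNAs did not keep a fixed ratio. Msh4 had 72, 91, 193 and 102 counts, or 2.10, 2.90, 4.87 and 5.41 TMM-scaled CPM, and none of its steps between neighbouring days was called. Its ratio was 1.68 (1.30 to 2.18) from E12.5 to E13.5 and 1.11 (0.865 to 1.42) from E13.5 to E14.5, where the log2 value was 0.15 by TMM and -0.91 by total counts. Msh5 had 105, 81, 82 and 87 counts, or 3.07, 2.58, 2.07 and 4.62 TMM-scaled CPM. It was called up from E13.5 to E14.5 at 2.23-fold (1.63 to 3.05), a log2 ratio of 1.16 by TMM that was 0.10 by total counts and -0.46 by deposited TPM. Within each library the TPM of Msh4 over that of Msh5 was 0.631 (0.461 to 0.859), 1.03 (0.757 to 1.41), 2.16 (1.66 to 2.84) and 1.08 (0.802 to 1.45), so that Msh4 was the lower of the pair at E11.5 and the higher at E13.5.

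**Figure D2:**
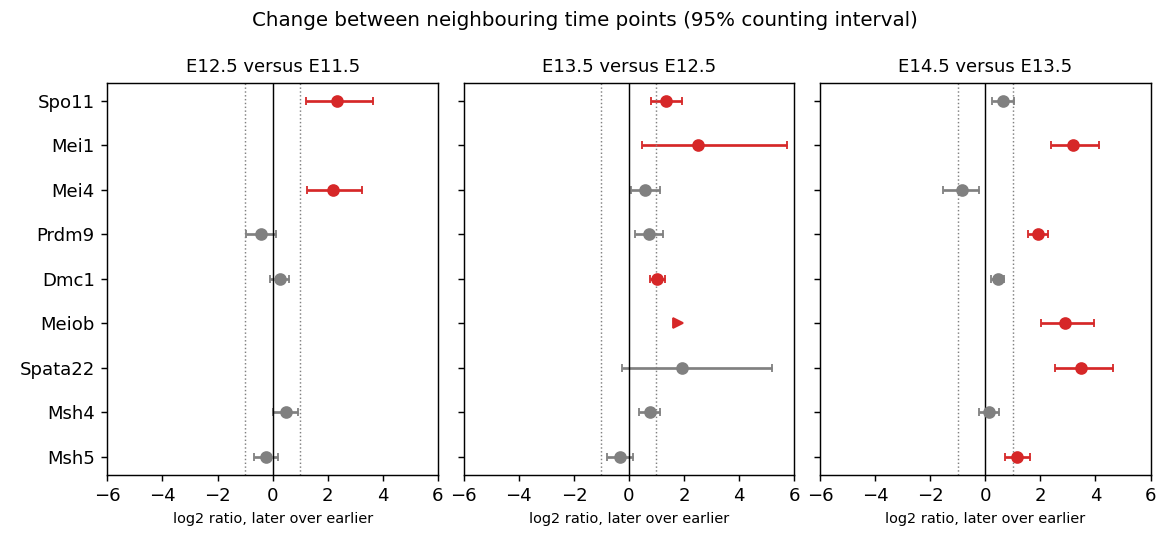
Log2 ratio of later over earlier library (horizontal axis, TMM scaling) for each of the 9 genes (vertical axis) in the 3 steps between neighbouring days. Bars are 95% counting intervals, red marks genes called changed, the arrowhead is a lower bound, dotted lines mark 2-fold, and genes with 3 counts or fewer in both libraries are left blank. The called genes are Spo11 and Mei4 in the step to E12.5, Spo11, Mei1, Dmc1 and Meiob in the step to E13.5, and Mei1, Prdm9, Meiob, Spata22 and Msh5 in the step to E14.5, where by total counts Prdm9 and Msh5 are under the threshold.

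The 9 genes were also set against the 20 general recombination genes described further on, a measure added after the values were seen. This is a scaling by the sum of those genes, of which none was called by TMM in any comparison and 19 were called down by total counts from E13.5 to E14.5, so it is no independent check of the change at E14.5. Per 1000 counts of these genes, the 9 meiotic genes together had 17.5 (15.8 to 19.3), 19.1 (17.3 to 20.9), 34.1 (32.0 to 36.3) and 69.0 (64.4 to 73.8) counts in order of age. On this measure Dmc1 had 12.9 (11.7 to 14.3) at E13.5 and 19.1 (16.7 to 21.6) at E14.5, and Mei4 had 3.20 (2.59 to 3.92) and 1.91 (1.23 to 2.81).

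Other genes of the same steps were listed by role. Of 4 partners in break formation, 3 were called up from E13.5 to E14.5: Ankrd31 7.12-fold, Gm960 (Top6bl) 2.30-fold and Ccdc36 (Iho1) 2.27-fold. The other, 2410076I21Rik (Rec114), rose 4.49-fold from E11.5 to E12.5. Of the crossover partners, 3 of 6 with enough counts were called up from E11.5 to E12.5, 3 of 9 in the next step, 5 of 9 in the last and 8 of 9 from E12.5 to E14.5, with none down by TMM. The largest rises of that longer comparison were Rnf212 at 26.3-fold, which rests on 2 counts at E12.5, AI481877 (Shoc1) at 15.3-fold and Ccnb1ip1 at 9.78-fold, while Mlh3, the most abundant, had a ratio of 0.990. Of 8 strand exchange partners, 2 were called up from E11.5 to E12.5, Hsf2bp at 4.73-fold and Tex15 at 3.15-fold, and Tex15 alone from E13.5 to E14.5, at 2.16-fold. Neither of the 2 hotspot partners, Zcwpw1 and Hells, was called by TMM in any comparison. By total counts the calls from E13.5 to E14.5 were 1 up and 1 down of 4 break formation partners, 2 up and 1 down of 9 crossover partners, 0 up and 4 down of 8 strand exchange partners and 0 up and 1 down of the 2 hotspot partners. From E12.5 to E14.5 the crossover partners had 4 up and 1 down by total counts and 3 up and 1 down by TPM.

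By TMM, genes of meiotic entry and of the chromosome axis were called up in each step, with none down. They were 8 of 13 with enough counts from E11.5 to E12.5, 7 of 15 from E12.5 to E13.5 and 8 of 15 from E13.5 to E14.5. In the last step 1 was up and 3 were down by total counts, and 1 was up and 7 were down by TPM. Stra8, which starts the meiotic programme, had 0, 3, 430 and 272 counts and rose 109-fold from E12.5 to E13.5. This fold rests on 3 counts at E12.5, and its log2 value of 6.77 had an interval of 5.27 to 9.11. Gm1564 (Meioc) rose by 3.86 on the log2 scale in the same step. From E13.5 to E14.5 the largest rise was that of Stag3, a meiotic cohesin subunit, at 8.62-fold, followed by Sycp2 at 3.98-fold and Sycp3 at 3.44-fold. The profile of Stag3 was unlike theirs, as it was already abundant at E11.5 and lower at E12.5. It had 2863, 1393, 2581 and 10590 counts in order of age. Sycp2 had 25, 74, 245 and 464 counts, and Sycp3 had 6, 66, 202 and 331.

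The 20 genes of general homologous recombination act in dividing cells as well. By TMM none was called in any of the 4 comparisons, whereas by total counts 19 were called down from E13.5 to E14.5, with the shift of all genes. By TMM, 2.66% of all genes were called up and 1.47% down from E12.5 to E13.5. The shares were 8.11% and 8.51% in the step before, 5.89% and 1.6% in the step after, and 8.31% and 2.64% from E12.5 to E14.5. A difference between these genes and the 9 was not tested. By TMM their median log2 ratios were 0.13, -0.05, -0.08 and -0.15, beside medians of all genes between -0.02 and 0.01. Their summed level was 679, 770, 749 and 696 TMM-scaled CPM. Among the more abundant of them, Brca2 had a ratio of 0.976 and Atm of 0.897 from E13.5 to E14.5.

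Markers of the cell types in the pools moved as well, and their part in the changes above was not tested. Of 8 germ cell markers, 7 were called up from E11.5 to E12.5, none from E12.5 to E13.5, and from E13.5 to E14.5 Mael was up and Tfap2c down, all by TMM. In this last step 0 were up and 5 down by total counts and 0 up and 6 down by TPM. Their summed level was 19.9 TMM-scaled CPM at E11.5 and 306, 391 and 335 later, and Dazl, the most abundant, rose 93.7-fold in the first step. Per 1000 germ cell marker counts, a measure also added after the values were seen, the 9 meiotic genes had 598 (528 to 678), 48.0 (43.7 to 52.8), 65.3 (61.3 to 69.6) and 143 (133 to 154) counts in order of age. At E11.5, where this value was highest, the 8 markers had 680 counts in all and Dmc1 alone had 136.

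Mesonephros markers summed to 113 TMM-scaled CPM at E11.5 and to 24.6, 17.4 and 23.6 after the mesonephros was removed. By TMM, 4 of 6 were called down from E11.5 to E12.5 and 2 of 6 from E12.5 to E13.5. From E13.5 to E14.5, 2 of 5 with enough counts were called up and 0 down by TMM. In this last step 2 were up and 2 down by total counts, and 1 up and 2 down by TPM. Sertoli markers summed to 83.8, 475, 392 and 426 and pregranulosa markers to 114, 141, 180 and 170. Fetal Leydig markers summed to 6.95, 80.8, 460 and 796, with Insl3 at 0 at E11.5. From E13.5 to E14.5 the median log2 ratio of the 3 Leydig markers was 0.80 by TMM, -0.26 by total counts and -0.82 by TPM, so the direction of this last step depends on the scaling. Erythroid markers summed to 1398, 1615, 649 and 197, macrophage markers to 34.1, 13.7, 14.04 and 20.4, and endothelial markers to 291, 298, 227 and 209. The median log2 ratio of the macrophage markers from E13.5 to E14.5 also turned with the scaling. It was 0.53 by TMM, -0.53 by total counts and -1.08 by TPM. The 10 housekeeping genes had no call by TMM in any comparison, and 9 were down by total counts from E13.5 to E14.5.

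The genes most alike in profile were sought among 17146 genes with at least 30 counts in 1 library, by the distance between log2 TMM-scaled CPM centred on the mean over the 4 libraries, with the 9 genes themselves left out. A profile over 4 libraries holds 4 values, so a short distance says little, and the names carry no statement on shared control. Nearest to Spo11 were Mrap at 0.138 and AU022751 at 0.215, after Arsi at 0.112. Nearest to both Mei1 and Spata22 were Ankrd31, Gm884 and Ccnb3, with Ankrd31 at 0.506 from Mei1 and Gm884 at 0.25 from Spata22. Both genes had 1 and 2 counts at E11.5 and E12.5, not above the floor of 3, so these distances carry little weight. Nearest to Prdm9 were Kdm4d at 0.216, Tbata at 0.294 and Dscaml1 at 0.320. Dmc1 lay closest to Fdps, Hnmt and Exd1 (0.079 to 0.129), Mei4 to Zcchc16, Irx3 and Nr4a1 (0.098 to 0.251), and Msh4 to Fgf11, C2 and Nxnl2 (0.061 to 0.073). Msh5 lay closest to 3 small RNA features, n-Tt6, AF357399 and n-Ts14 (0.056 to 0.117). The neighbours of Meiob, Cyp11b1, Cyp21a1 and Rad21l, lay far off, at 1.11 to 2.50, and depend on the prior count set for its 0 at E12.5.

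Promoter sequence was read from the RefSeq table for GRCm38.p6, which gives 300 bases around a gene start and matched 7 of the 9 genes with 8 windows, Prdm9 having 2. Spo11 and Meiob were not matched. Both strands were searched for CACGTG, the E-box letters, TCCCGC, the core letters of E2F sites, and CNCCTCAG, the letters reported for STRA8-bound promoters. TCCCGC was in 5 of the 8 windows and in 20.0% of 32851 windows of all genes, CNCCTCAG in 2 of 8 and in 7.94%, and CACGTG in 0 of 8 and in 7.15%. Of the 5 windows with TCCCGC, 1 is shown for each gene, for Prdm9 the one that also holds CNCCTCAG, with the 250 bases before the start printed 5' to 3' and matches that lie wholly before the start in capitals, on either strand. In the Prdm9 window TCCCGC and CNCCTCAG share 1 base. A match is a description of the letters and not a binding site.
Dmc1, chr15:79605110-79605359, minus strand: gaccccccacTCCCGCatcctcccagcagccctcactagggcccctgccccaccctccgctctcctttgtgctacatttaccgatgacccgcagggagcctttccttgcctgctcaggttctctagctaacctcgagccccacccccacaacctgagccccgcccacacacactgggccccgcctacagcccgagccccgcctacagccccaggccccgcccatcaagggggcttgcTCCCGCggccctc
Prdm9, chr17:15564355-15564604, minus strand: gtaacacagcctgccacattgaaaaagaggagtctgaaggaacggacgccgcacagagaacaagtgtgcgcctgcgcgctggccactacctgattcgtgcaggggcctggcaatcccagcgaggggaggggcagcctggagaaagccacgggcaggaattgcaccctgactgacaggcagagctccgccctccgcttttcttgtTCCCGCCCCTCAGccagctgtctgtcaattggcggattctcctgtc
Spata22, chr11:73329491-73329740, plus strand: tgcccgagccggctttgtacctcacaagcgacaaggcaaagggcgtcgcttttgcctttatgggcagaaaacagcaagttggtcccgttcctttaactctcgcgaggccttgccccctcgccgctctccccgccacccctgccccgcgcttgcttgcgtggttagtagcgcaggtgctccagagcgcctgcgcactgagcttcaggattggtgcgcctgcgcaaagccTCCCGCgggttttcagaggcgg
Msh5, chr17:35046623-35046872, minus strand: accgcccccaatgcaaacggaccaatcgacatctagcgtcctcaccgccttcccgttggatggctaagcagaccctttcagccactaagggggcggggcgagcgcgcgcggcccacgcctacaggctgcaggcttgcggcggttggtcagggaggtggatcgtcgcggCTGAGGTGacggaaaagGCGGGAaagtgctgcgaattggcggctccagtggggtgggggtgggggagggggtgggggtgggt
The gene start of the Spata22 window is the start of the gene in the count table, while the other windows start inside the genes of that table, by 23 bases for Mei4, 63 for Dmc1, 26 and 1049 for Prdm9, 1883 for Msh5, 2305 for Msh4 and 12397 for Mei1. The windows of Msh4, Mei4 and Mei1, with 43.3%, 60.7% and 46.7% of bases G or C, held none of these motifs. The 5 windows with TCCCGC had 58.3% to 69.0%, and the median of all windows was 52.7%.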

How the data were processed

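Gonad RNA was depleted of ribosomal RNA and made into stranded libraries by the authors, who used STAR for alignment to mm10, UMI-tools against duplicates and featureCounts for counting by gene. The counts and the TPM values used here are those the authors deposited, and the TPM values were checked against the counts and exon lengths. Tool versions and the annotation release are not given in the sources used here. TMM factors were computed in R 4.3.3 with edgeR 4.0.16 over genes with at least 10 counts in any library, and DESeq2 1.42.0 gave an alternative. Ratios used a prior count of 0.125 and exact Clopper-Pearson 95% intervals (Python 3.11.15, numpy 2.4.6, pandas 2.3.3, scipy 1.17.1, matplotlib 3.10.9). With 1 library per time point no p-value is reported, and an exact test in edgeR at preset dispersions served only as an alternative count of calls. A level of 0 was bounded by 3 counts. The call was tried on simulated data, where 99 or 100 of 100 genes changed 3-fold or 4-fold were recovered in each comparison. The changed genes were drawn from those well counted in both libraries. Recovery of genes near 0, such as Mei1, Meiob and Spata22 before E14.5, was therefore not tested. The simulated counts held counting error only, with no variation between animals. There were also 94 to 126 false calls per comparison, among 18904 to 19487 genes, from counting error alone. Named genes are the 9 members, at most 6 genes of a list (those called, by size, then the most abundant) and the 3 nearest profiles of each member. The members and lists were chosen with earlier results of these data known. Rnf212b of the crossover list was not analysed here, and some listed genes are not reported here by name.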

Additional observations from a re-analysis of the deposited data

How the results depend on the processing

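The counts of called genes were 2, 4 and 5 for the 3 successive steps between neighbouring days and 6 for E14.5 versus E12.5. Of 60 alternative counts, up and down calls added, 50 lay within 1.5 times of these. The 50 include 4 from total counts without Rn18s-rs5 and 4 from scaling by the general recombination genes. Both of those settings were chosen after seeing the data, and none of their counts lay outside that range. Those 50 include counts whose direction changed: for E14.5 versus E13.5, total counts gave 3 up and 1 down and deposited TPM 3 up and 3 down, each with 3 of the 5 calls by TMM, and for E14.5 versus E12.5 both gave 4 up and 1 down, with 4 of the 6. With at least 10 counts required in both libraries, which removes the genes near 0, they were 1 and 2 for the steps ending at E12.5 and E13.5 and 3 for E14.5 versus E12.5. With a 4-fold threshold they were 2 for E13.5 versus E12.5 and 3 for E14.5 versus E13.5. The 2 were Mei1, which rests on 2 counts at E12.5, and Meiob, which had 0 counts there. Meiob passes 4-fold only through the prior count, as its bound for this step is 3.43-fold. With edgeR's exact test at a preset biological coefficient of variation of 0.2, no gene (0) was called for E13.5 versus E12.5, and at 0.4 the counts were 0 for each step between neighbouring days and 3 for E14.5 versus E12.5. The spread between animals is unknown here, so which preset value applies was not tested. Of 248 alternative log2 ratios of single genes, 216 stayed inside their counting interval, 31 moved outside it and 1 called ratio reversed, that of Msh5 for E14.5 versus E13.5, -0.46 by deposited TPM. Of the 31, 10 changed sign as well, those of Spo11, Dmc1 and Msh4 for E14.5 versus E13.5 and of Msh4 and Msh5 for E14.5 versus E12.5, each by total counts and by deposited TPM. The called ratio of Dmc1 for E14.5 versus E12.5 went from 1.49 to 0 by deposited TPM. All 32 that moved or reversed involve E14.5, and 30 came from total counts or deposited TPM. The other 2 were ratios of Dmc1 by total counts without Rn18s-rs5, an alternative chosen after seeing the data, at 0.13 for E14.5 versus E13.5 and 1.19 for E14.5 versus E12.5. DESeq2 size factors, TMM over genes counted in every library, total counts without the most abundant features, a prior count of 2, and the general recombination genes as the scale, also chosen after seeing the data, moved no ratio outside its interval. The last called 7 genes for E14.5 versus E12.5. No paired analysis was possible because each time point has 1 library. Depth limits Mei1, Meiob and Spata22 at E11.5 and E12.5, where 3 counts are 0.0876 and 0.0957 TMM-scaled CPM.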
